A study of Mus musculus with 10 samples.

Results

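Mouse embryonic fibroblasts, the adherent connective tissue cells grown out of embryos, were compared after mock transfection at 32 °C and at 37 °C, the temperature of mild hypothermia against that of routine culture. The comparison rests on 4 of the 10 samples of the study, chosen as the libraries labelled mock at 32 °C (2 libraries) and mock at 37 °C (2 libraries). All 4 come from cells in DMEM with 10% serum and from polyadenylated RNA read as single ends of 76 nt, and both groups went through the transfection without an siRNA. The genotype, the age of the embryos, the time spent at 32 °C and whether replicates are separate cultures are not given in the labels used here, so p-values measure only the spread between these libraries, which may be technical. The study also holds knockdowns of Cirbp and Rbm3 at 37 °C and the binding sites of both proteins, also at 37 °C.

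Levels are FPKM, fragments for each kilobase of a transcript, relative to all mapped fragments, summed over the transcripts of a gene. Depth was 27.7 and 26.2 M fragments at 32 °C, and 27.8 and 27.0 M at 37 °C. Of 22552 listed genes, 10842 averaged 1 FPKM or more across the 4 libraries, and 10702 of these had a transcript of at least 200 nt and were tested. Just inside this minimum stood Zfp951 with 1.04 and 1.08 FPKM at 32 °C, against 1.07 and 0.814 FPKM at 37 °C, and just outside it Ghrl with 1.34 and 1.30 FPKM at 32 °C, against 0.669 and 0.689 FPKM at 37 °C. The fold changes below are differences of log2(FPKM + 1), 32 °C minus 37 °C, tested with limma and adjusted over all genes tested. Brackets after the values give this log2 fold change ± its SE (n = 2 libraries each) and the adjusted p. In RNA of whole cultures, fewer cells of a type and less RNA per cell cannot be told apart.

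The cells carried fibroblast markers at both temperatures: 13 of 16 were tested, of which 4 rose and 8 fell. Vimentin (Vim) had 1948 and 1828 FPKM at 32 °C, against 2889 and 2972 at 37 °C. Thy1 was at 0 in all 4 libraries, and Lum and Fap were under 1 FPKM. The sum was 11270 and 14024 FPKM at 32 °C, against 9852 and 9901 at 37 °C. The largest part was S100a4, with 7340 and 10168 FPKM at 32 °C, against 4421 and 4315 at 37 °C. Pdgfra rose (0.61), while Prrx1 (-1.42) and Pdgfrb (-0.87) fell. Markers of epithelium summed to 0.259 and 0.118 FPKM at 32 °C, against 1.42 and 1.81 FPKM at 37 °C, with Krt5 and Cldn3 at 0. Most of the sum at 37 °C was Krt19, with 0.122 and 0 FPKM at 32 °C, against 1.34 and 1.70 at 37 °C. For macrophages 3 of 13 markers were tested and the sum was 32.4 and 37.7 FPKM at 32 °C, against 18.9 and 22.4 FPKM at 37 °C, with Emr1, Lyz1 and Tyrobp at 0. Endothelial markers (3 of 11 tested, Emcn at 0) summed to 13.2 and 14.02 FPKM at 32 °C, against 19.02 and 20.3 FPKM at 37 °C. Muscle markers (3 of 13 tested, Myod1, Myog and Myh1 at 0) summed to 49.7 and 53.3 FPKM at 32 °C, against 62.7 and 66.6 FPKM at 37 °C. Adipocyte markers (2 of 9 tested, Lep at 0) gave 29.8 and 30.0 FPKM at 32 °C, against 19.2 and 19.9 FPKM at 37 °C. The 2 tested members moved apart. Fabp4 had 26.7 and 26.7 FPKM at 32 °C, against 10.2 and 9.98 at 37 °C. Lipe had 2.81 and 2.97 FPKM at 32 °C, against 8.40 and 9.62 at 37 °C. Neural markers (4 of 12 tested, Olig2, Rbfox3 and Snap25 at 0) gave 26.0 and 26.6 FPKM at 32 °C, against 65.9 and 69.1 FPKM at 37 °C. These sums moved with temperature without overlap, and their part in the results was not tested.

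Mild cooling slows enzymes, translation and division of mammalian cells and induces a small set of RNA-binding proteins, of which Cirbp and Rbm3 are the best known. Cells adjust their stock of mRNAs through transcription factors that answer to growth factors, to amino acid supply and to protein damage. ATF4, the effector of the integrated stress response, switches on enzymes that make amino acids, the carriers that import them and the synthetases that load them onto tRNA, and it often binds composite elements of the form TGATGNAA. Immediate early genes such as Fos and Egr1 respond within minutes to serum, through CArG boxes bound by SRF and elements such as TGACGTCA bound by CREB.

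The promoter windows of 8 genes that carry such a letter string are shown because their genes stand among the rises of the amino acid genes and the falls of the immediate early genes described below. Each run holds the 250 bases before the listed start in RefSeq, build GRCm38.p6, read 5′ to 3′ on the strand of the gene, and capitals mark the match on either strand. The first 5 carry TGATGNAA. Asns lies at chr6:7693210-7693459 (- strand), Slc7a11 at chr3:50443614-50443863 (- strand), Nupr1 at chr7:126625471-126625720 (- strand), Tars at chr15:11399659-11399908 (- strand) and Gars at chr6:55037751-55038000 (+ strand).
Asns: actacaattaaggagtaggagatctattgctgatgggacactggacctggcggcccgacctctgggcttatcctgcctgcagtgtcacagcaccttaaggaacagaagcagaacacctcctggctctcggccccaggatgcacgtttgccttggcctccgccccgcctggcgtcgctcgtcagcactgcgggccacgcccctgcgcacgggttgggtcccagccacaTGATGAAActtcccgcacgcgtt
Slc7a11: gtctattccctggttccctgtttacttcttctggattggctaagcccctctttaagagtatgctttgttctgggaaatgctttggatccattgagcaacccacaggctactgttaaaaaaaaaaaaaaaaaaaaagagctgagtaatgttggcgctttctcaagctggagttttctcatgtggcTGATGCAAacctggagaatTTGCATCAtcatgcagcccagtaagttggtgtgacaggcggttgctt
Nupr1: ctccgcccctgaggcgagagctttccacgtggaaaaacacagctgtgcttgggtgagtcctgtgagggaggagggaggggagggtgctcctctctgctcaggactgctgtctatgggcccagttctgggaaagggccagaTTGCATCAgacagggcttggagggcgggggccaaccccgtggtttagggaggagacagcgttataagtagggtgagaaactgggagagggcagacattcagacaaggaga
Tars: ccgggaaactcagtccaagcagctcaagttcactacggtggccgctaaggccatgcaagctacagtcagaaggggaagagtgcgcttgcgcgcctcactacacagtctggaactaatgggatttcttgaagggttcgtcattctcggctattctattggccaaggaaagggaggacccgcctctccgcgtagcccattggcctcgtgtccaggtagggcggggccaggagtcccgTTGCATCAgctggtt
Gars: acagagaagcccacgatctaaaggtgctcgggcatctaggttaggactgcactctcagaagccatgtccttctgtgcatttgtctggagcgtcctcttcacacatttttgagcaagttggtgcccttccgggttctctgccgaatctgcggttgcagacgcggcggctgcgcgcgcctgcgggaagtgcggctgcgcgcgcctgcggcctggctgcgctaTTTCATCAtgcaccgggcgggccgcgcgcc
The Egr2 window, at chr10:67537316-67537565 (+ strand), carries a CArG box, and those of Dusp1 at chr17:26508473-26508722 (- strand) and Errfi1 at chr4:150854820-150855069 (+ strand) carry TGACGTCA.
Egr2: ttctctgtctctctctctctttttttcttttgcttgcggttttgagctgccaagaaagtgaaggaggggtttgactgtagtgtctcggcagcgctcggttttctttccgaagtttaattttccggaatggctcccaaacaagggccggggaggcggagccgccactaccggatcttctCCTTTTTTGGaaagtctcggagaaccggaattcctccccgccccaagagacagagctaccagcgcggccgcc
Dusp1: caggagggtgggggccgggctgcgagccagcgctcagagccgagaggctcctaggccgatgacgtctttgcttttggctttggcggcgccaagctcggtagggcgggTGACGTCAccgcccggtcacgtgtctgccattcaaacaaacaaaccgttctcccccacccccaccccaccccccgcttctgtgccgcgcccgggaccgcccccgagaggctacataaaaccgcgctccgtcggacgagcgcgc
Errfi1: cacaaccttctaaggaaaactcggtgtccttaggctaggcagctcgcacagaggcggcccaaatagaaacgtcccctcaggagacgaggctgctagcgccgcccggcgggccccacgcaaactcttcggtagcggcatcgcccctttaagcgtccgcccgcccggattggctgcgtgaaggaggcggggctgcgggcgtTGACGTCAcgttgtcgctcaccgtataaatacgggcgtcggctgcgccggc

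Of the genes tested, 8600 (80.4%) had a promoter in that table, several with more than 1 window. TGATGNAA, searched on both strands, was found for 192 of them (2.23%), for 8 of 32 genes of the ATF4 and amino acid list and for 3 of 15 cytosolic tRNA synthetases. Such lists were drawn from knowledge in which this element helped to define targets, so the shares are a description. Outside the amino acid, synthetase, immediate early and actomyosin lists, 181 genes carried the string, and 37.6% of them were called higher and 38.7% lower at 32 °C, against 34.2% and 36.7% of all 8464 genes with a promoter outside those lists. TGACGTCA was found for 3.28% of genes with a promoter and for 4 of 30 immediate early genes (13.3%), and the CArG box for 1.40% of genes, 3 of 30 immediate early genes and 6 of 59 actomyosin genes (10.2%). Of 111 genes with a CArG box outside those lists, 45.0% were called lower and 38.7% higher. CACGTG, the E-box of Myc and of lysosomal regulators, was found for 10.3% of genes, 5 of 62 ribosome biogenesis genes (8.06%) and 2 of 11 proton pump genes (18.2%). It was also found for 6 of 30 immediate early genes (20%) and 3 of 15 cytosolic tRNA synthetases (20%), so the proton pump share is not particular to that list.

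At 32 °C 7615 genes were called (71.2%), of which 3649 were higher (34.1%) and 3966 lower (37.1%). Changes of at least 2-fold were fewer, with 347 genes higher (3.24%) and 845 lower (7.9%). The median change of all genes was -0.01. Libraries of a group were close, with a median absolute log2 difference between the replicates of 0.106 at 32 °C and 0.0875 at 37 °C. With the siRNA libraries in the same fit, called the 8-library fit below, 3710 genes were called, 1519 higher (14.2%) and 2191 lower (20.5%). In earlier results of these data the siRNA libraries spread more widely than the mock libraries, and 1 of them went against its label. The 8-library fit shares their spread, and how far this accounts for calls lost in it was not tested. Without the filter on low values 1 of 21819 genes passed, with 6592 at an unadjusted p under 0.05. Because so many genes passed, members of each process are read against these shares. Cirbp had 34.5 and 37.2 FPKM at 32 °C, against 15.9 and 17.1 at 37 °C (1.07 ± 0.09, adjusted p = 1.70e-06). Rbm3 had 3.64 and 3.20 FPKM at 32 °C, against 1.85 and 2.21 at 37 °C (0.55 ± 0.11, adjusted p = 7.67e-04), which did not pass with all 8 libraries in the fit (adjusted p = 0.177). Both cold-inducible transcripts were above both 37 °C libraries in each 32 °C library.

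Outside the cell cycle, p53, hypoxia and matrix lists, the 14 largest rises were of genes of mixed function. These lists need not hold every gene of those processes, which also bears on the falls below. Anxa8, a calcium-dependent phospholipid-binding annexin, had 32.7 and 36.7 FPKM at 32 °C, against 3.96 and 4.83 at 37 °C (2.73 ± 0.10, adjusted p = 9.85e-09). Arrdc4, an alpha-arrestin of the family that draws transporters and receptors in from the cell surface, had 79.7 and 89.95 FPKM at 32 °C, against 13.6 and 12.8 at 37 °C (2.59 ± 0.10, adjusted p = 9.85e-09). Sema3c, a secreted semaphorin that guides migrating cells, had 47.1 and 52.3 FPKM at 32 °C, against 9.88 and 9.79 at 37 °C (2.23 ± 0.09, adjusted p = 1.56e-08). For each of these the 32 °C libraries lay several fold above both 37 °C libraries. The chemokine genes Ppbp and Ccl9 reached 21.9 and 14.5 FPKM on average at 32 °C, against 4.098 and 2.88 FPKM at 37 °C. Crct1, of the epidermal differentiation complex, and Mustn1, a nuclear protein of muscle and cartilage, reached 17.01 and 9.96 FPKM, against 1.77 and 1.76 FPKM. The uncharacterised E230016K23Rik averaged 9.37 FPKM at 32 °C, against 0.659 FPKM at 37 °C.

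Rmrp, the RNA of RNase MRP that cuts ribosomal RNA precursors, had 142 and 201 FPKM at 32 °C, against 24.95 and 29.2 at 37 °C (2.60 ± 0.15, adjusted p = 2.51e-07). Rprl3, an RNase P RNA-like gene, had 33.5 and 19.8 FPKM at 32 °C, against 3.11 and 3.21 at 37 °C (2.69 ± 0.23, adjusted p = 7.68e-05). RNAs of this kind normally carry no poly(A) tail, and how much of them a poly(A) selection retains was not tested. Gm11428 had 12.6 and 21.7 FPKM at 32 °C, against 0.409 and 0.281 at 37 °C (3.71 ± 0.21, adjusted p = 3.21e-06), which at 37 °C is 5.33 and 3.55 reads. Pisd-ps1, a pseudogene, had 3.72 and 8.06 FPKM at 32 °C, against 0.00105 and 0.00123 at 37 °C, less than 1 read in each 37 °C library, and reads of its near-identical copies could be split between them, so no fold is given. The calls of Gm11428, Rprl3 and Pisd-ps1 were lost without 37 °C replicate 2, and those of Rprl3 and Pisd-ps1 also without 37 °C replicate 1. With 1 library left at 37 °C, the spread within groups comes from the 32 °C libraries alone, which lay apart for these 3 genes. With the length trend removed the adjusted p was 0.0524 for Rprl3.

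Outside the same lists the largest falls were led by Mpp2, a scaffold of the membrane-associated guanylate kinase family, with 2.62 and 3.04 FPKM at 32 °C, against 23.9 and 25.7 at 37 °C (-2.75 ± 0.10, adjusted p = 7.93e-09). Smtnl2, a smoothelin-like protein, had 0.118 and 0.125 FPKM at 32 °C, against 6.28 and 6.24 at 37 °C (-2.69 ± 0.10, adjusted p = 9.67e-09). Pkp1, a desmosomal plakophilin, had 13.8 and 13.6 FPKM at 32 °C, against 87.9 and 87.9 at 37 °C (-2.60 ± 0.09, adjusted p = 7.93e-09). In all 3 genes both 32 °C libraries were far below both 37 °C libraries. Arrb1, the beta-arrestin that desensitises receptors, averaged 3.95 FPKM at 32 °C, against 28.3 FPKM at 37 °C. The peptide hormone gene Apln averaged 8.08 against 49.1 FPKM, the cartilage transcription factor Sox9 4.39 against 28.3 FPKM, and the acyl-CoA synthetase gene Slc27a3 1.37 against 13.5 FPKM. Prr11 averaged 1.13 FPKM at 32 °C, against 10.04 FPKM at 37 °C, and Sprr1a, of the cornified envelope, 38.9 against 184 FPKM. All 28 largest changes passed with all 8 libraries in the fit, and 25 passed with any 1 mock library left out.

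**Figure D1:**
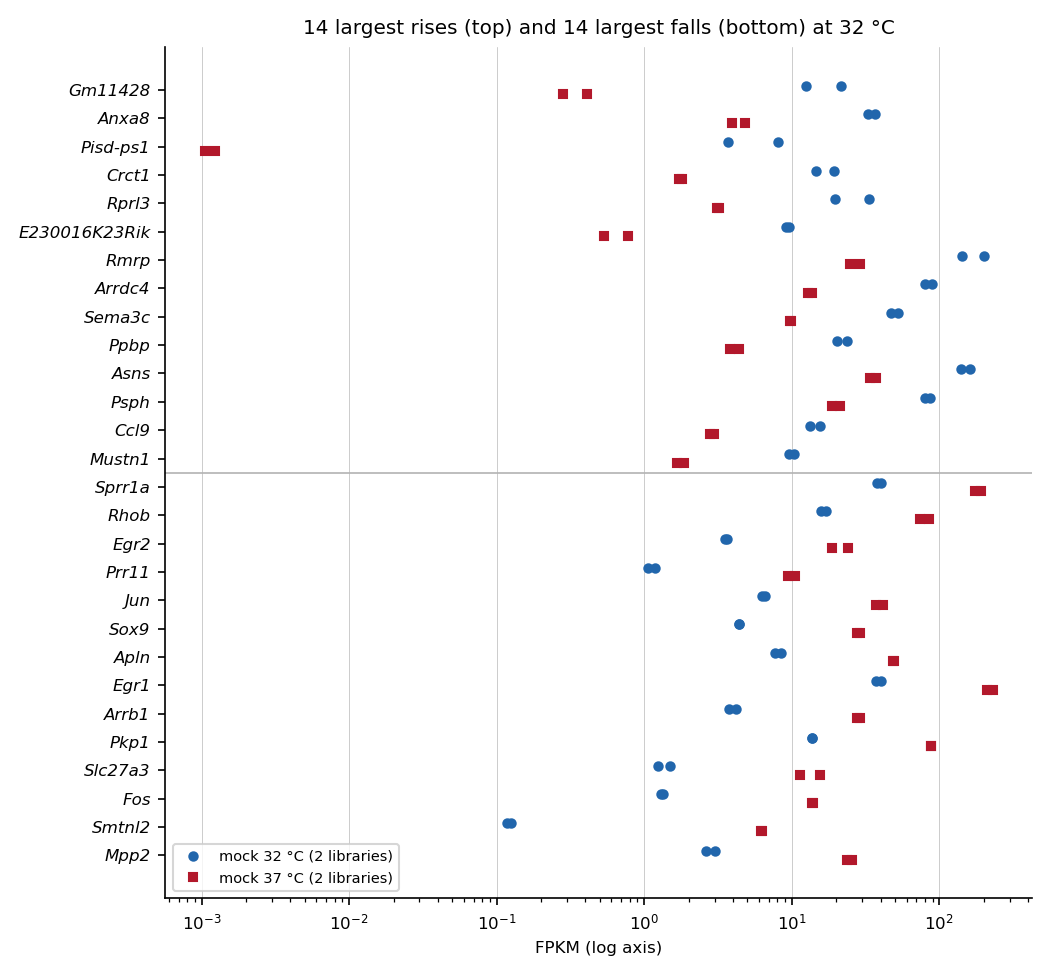
FPKM of the 14 largest rises and 14 largest falls in each mock library, on a log axis, with 32 °C as circles above 37 °C as squares. The groups do not overlap for any of the 28 genes, which the choice of these genes required, and Pisd-ps1 at 37 °C rests on less than 1 read.

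Many genes that supply amino acids to protein synthesis rose. Of 37 measured ATF4 targets and amino acid genes 20 rose (7 at least 2-fold) and 6 fell, with a median log2 fold change of 0.29 (0.49 with the length trend described below removed). Atf4 itself had 358 and 358 FPKM at 32 °C, against 155 and 159.8 at 37 °C (1.18 ± 0.11, adjusted p = 3.19e-06). Asparagine synthetase (Asns) had 139.9 and 160.3 FPKM at 32 °C, against 34.1 and 37.1 at 37 °C (2.04 ± 0.11, adjusted p = 6.59e-08). Phosphoserine phosphatase (Psph), the last step of serine synthesis, had 79.4 and 86.7 FPKM at 32 °C, against 18.7 and 21.1 at 37 °C (2.01 ± 0.10, adjusted p = 4.60e-08). For these genes both 32 °C libraries lie at more than 2 times the level of either 37 °C library. The enzymes before it in that pathway, named after their values were seen, rose less, with log2 fold changes of 0.64 for Phgdh and 0.69 for Psat1.

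The cystine carrier Slc7a11, which brings in the precursor of cysteine and glutathione, had 7.49 and 5.96 FPKM at 32 °C, against 1.61 and 1.59 at 37 °C (1.56 ± 0.11, adjusted p = 5.09e-07). Cth, the enzyme that makes cysteine from cystathionine, had 18.9 and 22.04 FPKM at 32 °C, against 6.71 and 7.51 at 37 °C (1.40 ± 0.10, adjusted p = 4.64e-07). The stress-induced nuclear protein Nupr1 had 361 and 337 FPKM at 32 °C, against 158 and 154 at 37 °C (1.16 ± 0.11, adjusted p = 4.12e-06). Each of these was higher in both 32 °C libraries than in either 37 °C library. Of the fallen members, named after their values were seen, Mthfd1l of the mitochondrial folate cycle changed by -1.13 and the transcription factor Cebpb by -0.76. With all 8 libraries in the fit 11 members rose and 1 fell.

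Cytosolic aminoacyl-tRNA synthetases, which load tRNA with amino acids, rose in 12 of 22 cases (4 at least 2-fold) and fell in 2, with a median of 0.36, which was 0.56 with the length trend removed and 0.21 with quantile normalization. Threonyl-tRNA synthetase (Tars) had 92.9 and 93.4 FPKM at 32 °C, against 40.8 and 41.9 at 37 °C (1.15 ± 0.10, adjusted p = 1.38e-06). The glycyl enzyme (Gars) had 146 and 148 FPKM at 32 °C, against 68.8 and 69.01 at 37 °C (1.08 ± 0.10, adjusted p = 3.17e-06). The abundant asparaginyl enzyme (Nars) had 154 and 159.9 FPKM at 32 °C, against 73.4 and 72.9 at 37 °C (1.09 ± 0.10, adjusted p = 3.30e-06). Lars and Hars changed by 1.01 and 0.87. Against them the valyl enzyme (Vars) had 13.03 and 12.8 FPKM at 32 °C, against 27.7 and 31.2 at 37 °C (-1.13 ± 0.09, adjusted p = 1.17e-06), below both 37 °C libraries. The 8-library fit had 9 higher and 1 lower. Translation initiation and elongation factors as a whole did not stand apart from the background, with 26 of 66 higher and 19 lower (median 0.07). Its extremes, named after their values were seen, were Eif2s2, a subunit of eIF2 (1.44), and Eif2c2, an Argonaute protein (-1.70).

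Ribosome biogenesis, the making of ribosomal RNA and its assembly in the nucleolus, held 50 of 74 members that rose (12 at least 2-fold) and 5 that fell, with a median of 0.53 and 0.49 with the length trend removed. Nhp2, a core protein of the snoRNPs that pseudouridylate rRNA, had 52.03 and 60.2 FPKM at 32 °C, against 19.1 and 23.2 at 37 °C (1.37 ± 0.11, adjusted p = 1.46e-06). The small-subunit processome gene Wdr75 had 40.5 and 46.6 FPKM at 32 °C, against 16.6 and 16.5 at 37 °C (1.34 ± 0.10, adjusted p = 5.08e-07). Ltv1, an assembly factor of the small subunit, changed by 1.31, nucleostemin (Gnl3) by 1.25, Wdr43 by 1.18 and the snoRNP core protein Nop56 by 1.13. For each of these genes both 32 °C libraries lie above both 37 °C libraries. The members that fell, named after their values were seen, were Tcof1 (-0.77), Npm1 (-0.55), Mybbp1a (-0.43) and the polymerase I subunits Polr1b (-0.32) and Polr1a (-0.25). Myc, a known activator of these genes, had 58.01 and 50.9 FPKM at 32 °C, against 63.6 and 76.2 at 37 °C (-0.35 ± 0.12, adjusted p = 0.0176). That call was lost without 32 °C replicate 2 (adjusted p = 0.125), without 37 °C replicate 2 (0.225) and with all 8 libraries in the fit (0.448). In the 8-library fit 26 biogenesis genes rose and 0 fell.

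Polyamines, small cations that bind RNA and support translation, are made from ornithine and S-adenosylmethionine. Of 13 measured polyamine genes 10 rose and 0 fell, with a median of 0.51 and 0.37 with the length trend removed. Sat1, which acetylates polyamines for export, had 82.7 and 109.6 FPKM at 32 °C, against 42.3 and 41.2 at 37 °C (1.17 ± 0.13, adjusted p = 1.01e-05). Mat2a, which makes S-adenosylmethionine, had 42.5 and 45.5 FPKM at 32 °C, against 21.1 and 22.1 at 37 °C (0.99 ± 0.09, adjusted p = 3.13e-06). Mat2b, its regulatory subunit, changed by 0.77, the antizyme inhibitor Azin1 by 0.57 and spermidine synthase (Srm) by 0.51. Members of both synthesis and export thus stood above both 37 °C libraries. In the 8-library fit 4 of the 13 passed, and Azin1 and Srm did not (adjusted p = 0.0664 and 0.372).

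**Figure D2:**
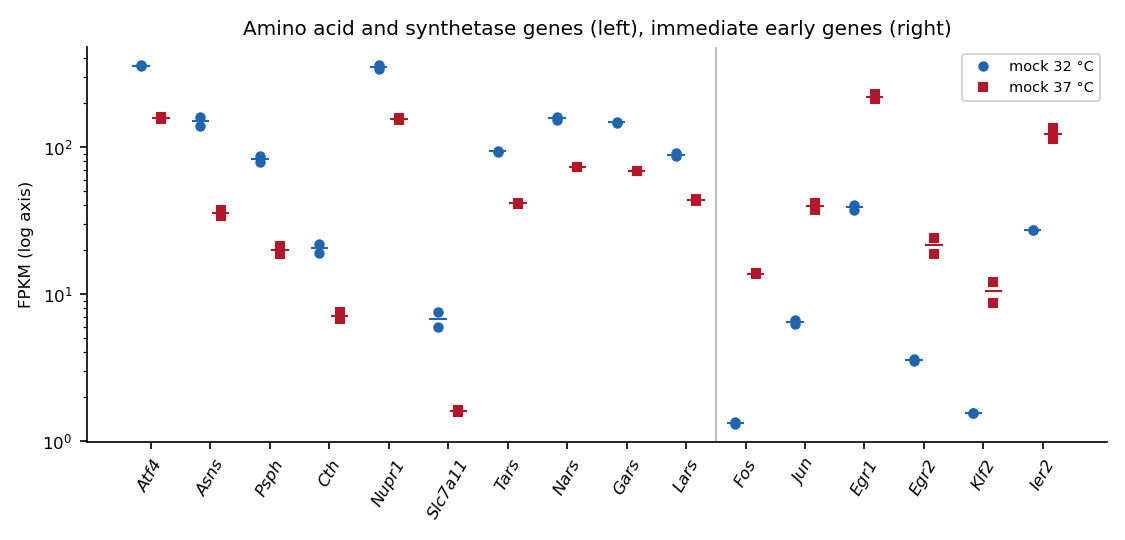
FPKM in each mock library, on a log axis, for 10 amino acid and synthetase genes (left of the line) and 6 immediate early genes (right), with 32 °C as circles left of 37 °C as squares and bars at the means. The 10 genes on the left are higher at 32 °C and the 6 on the right lower, with no overlap of libraries.

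The proteasome, which degrades ubiquitin-tagged proteins, rose broadly: 33 of 42 measured subunits and assembly factors were higher (4 at least 2-fold) and 2 lower, with a median of 0.67. Of the ATPase ring that unfolds substrates, Psmc2 had 128 and 138 FPKM at 32 °C, against 59.1 and 59.8 at 37 °C (1.15 ± 0.10, adjusted p = 2.24e-06). Psmc4 of the same ring had 77.8 and 92.7 FPKM at 32 °C, against 35.4 and 41.4 at 37 °C (1.13 ± 0.12, adjusted p = 7.31e-06). The lid genes Psmd6 and Psmd8 changed by 1.07 and 0.97, the assembly chaperone Psmg2 by 1.13, and the core genes Psmb2 and Psmb4 by 0.97 and 0.90. Psmd3 (-0.75), a lid gene, and the activator Psme4 (-0.56) fell, both named after their values were seen. Nfe2l1, the factor that drives proteasome genes when the proteasome is short, had 123 and 124 FPKM at 32 °C, against 148 and 157 at 37 °C (-0.30 ± 0.11, adjusted p = 0.0231). Its call was lost without either 37 °C library (adjusted p = 0.1 without replicate 1 and 0.225 without replicate 2), with all 8 libraries in the fit (0.337) and with the length trend removed (log2 fold change -0.07, adjusted p = 0.414). A transcript of it is marked as failed in the deposited tables. With the length trend removed the median of the proteasome was 0.44 and 33 were called higher, and 26 rose and 1 fell with all 8 libraries in the fit.

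The vacuolar proton pump acidifies lysosomes and endosomes by turning a membrane ring (V0) with an ATPase head (V1). Of 16 measured members 11 rose and 1 fell, with a median of 0.50 and 0.36 with the length trend removed. The accessory protein gene Atp6ap2 had 86.1 and 88.7 FPKM at 32 °C, against 44.7 and 41.3 at 37 °C (1.01 ± 0.10, adjusted p = 4.52e-06). The head subunit gene Atp6v1h had 60.01 and 75.8 FPKM at 32 °C, against 34.4 and 33.01 at 37 °C (0.98 ± 0.12, adjusted p = 1.93e-05). The head subunits Atp6v1e1, Atp6v1d, Atp6v1g1 and Atp6v1f changed by 0.89, 0.77, 0.75 and 0.66. In the 8-library fit 7 members rose and 0 fell, and Atp6v1f did not pass (adjusted p = 0.0594). The abundant Atp6ap1 had 129 and 143 FPKM at 32 °C, against 128 and 126 at 37 °C and did not pass (adjusted p = 0.443). Tcfe3 and Tcfeb, transcription factors of lysosomal genes, were also read. Tcfe3 had 16.6 and 17.2 FPKM at 32 °C, against 33.2 and 36.00 at 37 °C (-0.99 ± 0.09, adjusted p = 2.64e-06), and Tcfeb had 5.05 and 4.87 FPKM at 32 °C, against 8.38 and 10.04 at 37 °C (-0.77 ± 0.10, adjusted p = 4.38e-05). Both were lower in both 32 °C libraries. Of 64 lysosomal enzymes and membrane proteins 26 rose and 22 fell, near the background.

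Nuclear genes of mitochondria moved upward, but as a group they encode short transcripts. Of 73 measured respiratory chain and ATP synthase genes 46 rose and 4 fell (median 0.48), of 74 mitochondrial ribosomal protein genes 50 rose and 3 fell (median 0.39), and of 38 genes of import and protein quality control 20 rose and 6 fell (median 0.36). With the length trend removed the medians were 0.10, 0.17 and 0.13, with 30, 36 and 16 genes higher and 14, 13 and 7 lower. Of all 10702 genes 4011 were higher and 3838 lower in that fit, so the shares of higher genes in the respiratory chain and import lists were near the background. Uqcr10, a small subunit of complex III, had 206 and 247 FPKM at 32 °C, against 95.1 and 100.2 at 37 °C (1.20 ± 0.12, adjusted p = 5.01e-06). Uqcrc1, a core subunit of the same complex, had 22.2 and 24.4 FPKM at 32 °C, against 43.8 and 53.5 at 37 °C (-1.03 ± 0.11, adjusted p = 9.41e-06). Subunits of 1 complex thus moved apart, each without overlap of libraries. Ndufb6 of complex I and Uqcrq of complex III changed by 1.00 and 0.99, and the ATP synthase subunit gene Atp5d and the muscle-type Cox7a1 by -1.02 and -1.26. The 8-library fit had 25 respiratory chain genes higher and 2 lower, and 23 mitochondrial ribosomal genes higher and 1 lower, and Cox7a1 did not pass (adjusted p = 0.0927).

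The mitochondrial ribosomal gene Mrpl20 had 87.95 and 96.8 FPKM at 32 °C, against 41.9 and 43.8 at 37 °C (1.09 ± 0.10, adjusted p = 3.03e-06). The abundant Mrpl33 had 304 and 342 FPKM at 32 °C, against 164 and 153 at 37 °C (1.02 ± 0.12, adjusted p = 1.44e-05). Both were clearly above both 37 °C libraries. In the import list the intermembrane-space chaperone gene Timm10 had 29.4 and 35.4 FPKM at 32 °C, against 9.31 and 11.7 at 37 °C (1.54 ± 0.12, adjusted p = 7.79e-07). Its partner Timm9 had 19.7 and 22.97 FPKM at 32 °C, against 9.39 and 9.94 at 37 °C (1.06 ± 0.10, adjusted p = 2.64e-06). The outer membrane receptor gene Tomm70a and the matrix chaperone gene Hspa9 changed by 0.90 and 0.79. Among the 6 members that fell, Lonp1, the main matrix protease, had 44.1 and 45.8 FPKM at 32 °C, against 123 and 135 at 37 °C (-1.50 ± 0.10, adjusted p = 3.51e-07). Spg7, of the inner membrane, had 14.8 and 16.9 FPKM at 32 °C, against 33.2 and 37.8 at 37 °C (-1.11 ± 0.10, adjusted p = 2.75e-06). Timm10 and Timm9 were above and Lonp1 and Spg7 below both 37 °C libraries in each 32 °C library. In the 8-library fit 9 genes of the import list rose and 4 fell, and Hspa9 did not pass (adjusted p = 0.0604). Among regulators of mitochondrial genes Ppargc1a changed by 0.52 (adjusted p = 5.89e-04), Ppargc1b by -0.53 (0.00118) and Nrf1 by -0.42 (0.00239). None of these passed with all 8 libraries in the fit (adjusted p = 0.223, 0.0504 and 0.0814). Gabpa had 17.1 and 16.7 FPKM at 32 °C, against 17.04 and 16.8 at 37 °C (adjusted p = 0.977).

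**Figure D3:**
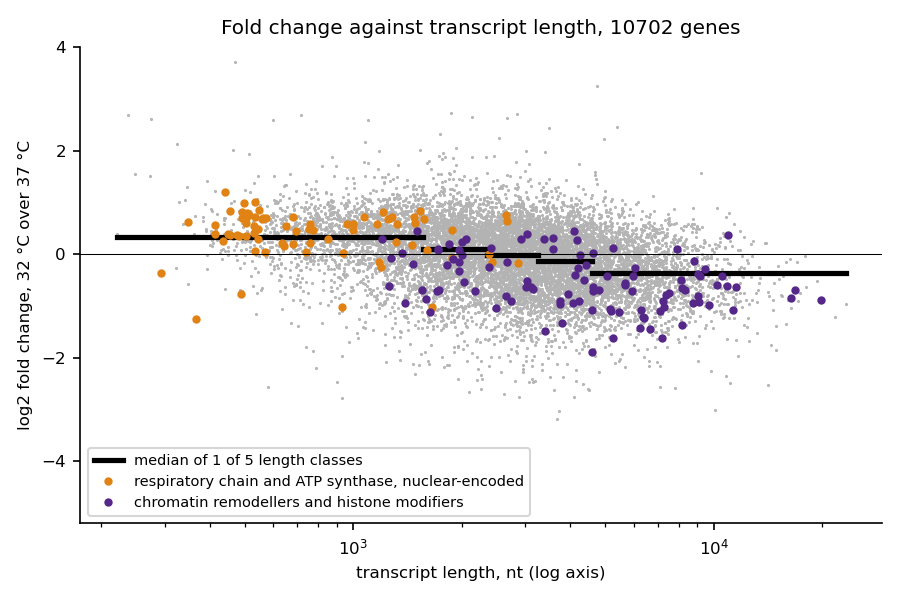
Log2 fold change (32 °C over 37 °C) against the length of the main transcript, on a log axis, for all genes tested, with black bars at the medians of 5 equal classes of length. Respiratory chain genes (orange) are short and mostly above 0, chromatin genes (purple) long and mostly below 0, and the bars step down from 0.32 to -0.36.

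Fold changes followed transcript length over all genes, which bears on every list of uniformly short or long genes. The Spearman correlation across genes, which are not independent replicates, was -0.348. The median change was 0.32 in the shortest of 5 equal classes of genes (221 to 1559 nt) and -0.36 in the longest (4605 to 23242 nt), with 53.5% and 16.4% of genes called higher. By mean FPKM the median was -0.05 in the lowest of 5 classes and 0.20 in the highest. Whether this trend comes from the cells or from the libraries was not tested. Called genes had a median length of 2137 nt when higher and 3541 nt when lower.

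**Figure D4:**
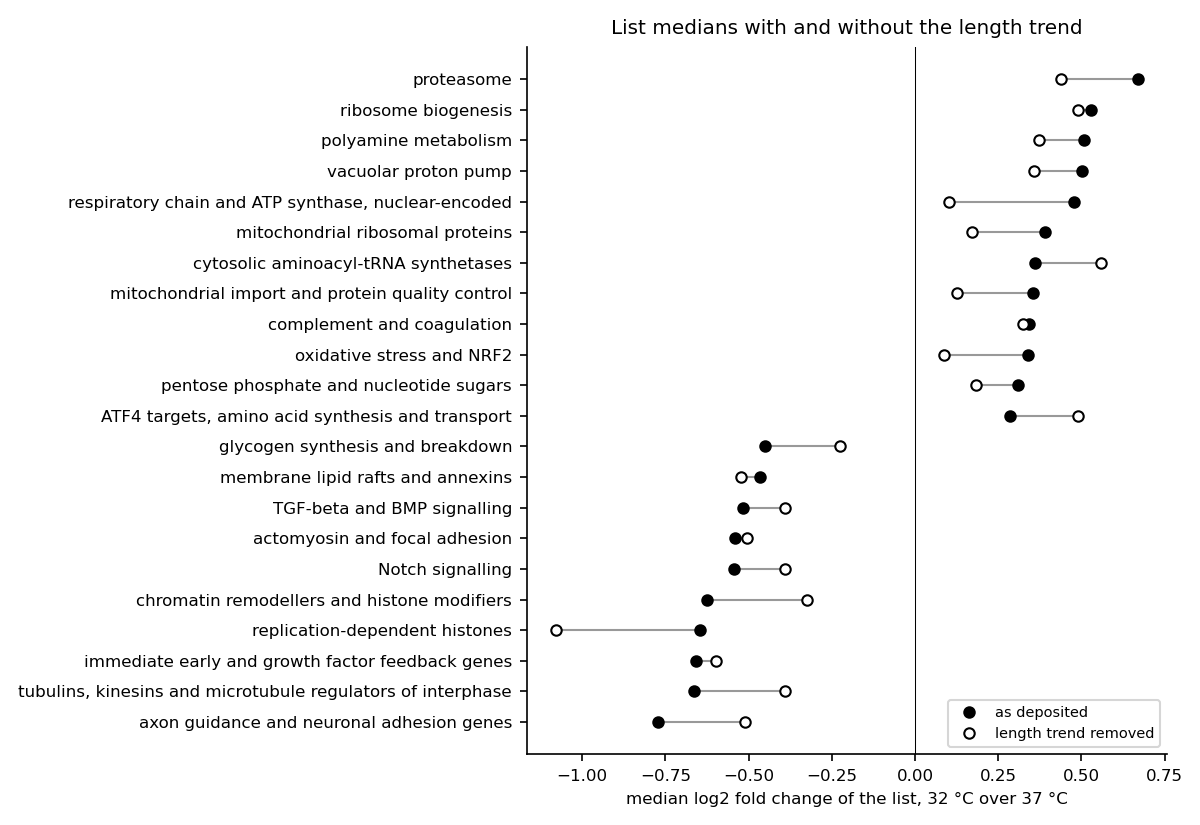
Median log2 fold change (32 °C over 37 °C) of each of 22 process lists as deposited (filled) and after the trend with transcript length was removed (open). Each list keeps its sign, while the respiratory chain moves to 0.10 and the chromatin list to -0.33.

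Antioxidant and detoxification genes, many of them targets of NRF2 (Nfe2l2), rose in 27 of 51 cases and fell in 8, with a median of 0.34 that was 0.09 with the length trend removed. With that trend removed 22 were higher and 14 lower, against 4011 and 3838 of all 10702 genes. Nfe2l2 itself had 51.7 and 52.8 FPKM at 32 °C, against 34.7 and 32.9 at 37 °C (0.61 ± 0.09, adjusted p = 1.19e-04). Keap1, the adaptor that targets it for degradation, had 8.42 and 8.74 FPKM at 32 °C, against 12.2 and 13.6 at 37 °C (-0.54 ± 0.09, adjusted p = 2.54e-04). Ephx1, a detoxifying epoxide hydrolase, had 114 and 127 FPKM at 32 °C, against 43.1 and 42.9 at 37 °C (1.46 ± 0.10, adjusted p = 4.09e-07). The glutathione synthetase gene Gss had 38.3 and 41.6 FPKM at 32 °C, against 19.04 and 20.7 at 37 °C (0.97 ± 0.09, adjusted p = 4.26e-06). Nfe2l2, Ephx1 and Gss were above and Keap1 below both 37 °C libraries. Prdx3 and Prdx1, peroxiredoxins that remove hydrogen peroxide, changed by 0.83 and 0.83. The abundant Prdx5 had 327 and 396 FPKM at 32 °C, against 348 and 408 at 37 °C and did not pass (adjusted p = 0.684). With the length trend removed it was lower (-0.45, adjusted p = 1.11e-04). Tkt, given in the next paragraph, had the deepest fall of this list (-1.11). Txnip, an alpha-arrestin like Arrdc4, changed by 0.82, which did not pass with all 8 libraries in the fit (adjusted p = 0.369). The 8-library fit gave 10 higher and 5 lower.

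The pentose phosphate pathway makes NADPH and ribose, and its genes were split. Of 21 genes of this pathway and of nucleotide sugars 12 rose and 4 fell (median 0.31), with 4 and 2 when all 8 libraries were fitted and 10 and 5 with the length trend removed (median 0.18). Transketolase (Tkt) had 26.4 and 27.5 FPKM at 32 °C, against 55.4 and 63.8 at 37 °C (-1.11 ± 0.10, adjusted p = 2.70e-06). Pgd, which makes NADPH, had 39.8 and 46.4 FPKM at 32 °C, against 70.01 and 81.5 at 37 °C (-0.80 ± 0.11, adjusted p = 7.71e-05). Both were below 37 °C in each library. Pgls, the lactonase between the NADPH steps, Prps1, which makes the activated ribose for nucleotides, and Uxs1, which makes UDP-xylose, changed by 0.82, 0.83 and 0.94.

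Of 18 measured complement and coagulation genes 11 rose and 4 fell (median 0.34, and 0.33 with the length trend removed). The members that rose included the protease receptor gene F2r (0.56), the urokinase receptor gene Plaur (0.94) and the serpin genes Serpinf1 (0.93) and Serpine2 (0.75), which act on proteolysis and growth rather than in complement itself. Against them the central complement gene C3 had 17.99 and 18.5 FPKM at 32 °C, against 50.2 and 52.7 at 37 °C (-1.45 ± 0.09, adjusted p = 1.99e-07), with no overlap of libraries. With all 8 libraries in the fit 3 rose and 2 fell, and C3, Serpinf1 and Serpine2 did not pass (adjusted p = 0.103, 0.105 and 0.202).

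Immediate early and growth factor feedback genes fell together: 30 of 39 were lower (13 at least 2-fold) and 2 higher, with a median of -0.66 and -0.60 with the length trend removed. Fos, a subunit of AP-1, had 1.34 and 1.30 FPKM at 32 °C, against 13.9 and 13.6 at 37 °C (-2.67 ± 0.09, adjusted p = 7.93e-09). Its partner Jun had 6.63 and 6.24 FPKM at 32 °C, against 37.2 and 41.7 at 37 °C (-2.44 ± 0.09, adjusted p = 9.85e-09). Both were far lower at 32 °C. The zinc finger factor gene Egr1 had 40.4 and 37.2 FPKM at 32 °C, against 211 and 229.9 at 37 °C (-2.47 ± 0.11, adjusted p = 1.87e-08). Its relative Egr2 had 3.63 and 3.52 FPKM at 32 °C, against 18.8 and 24.1 at 37 °C (-2.29 ± 0.11, adjusted p = 4.03e-08). For each of these 4 genes both 32 °C libraries were far below both 37 °C libraries. Klf2 changed by -2.15, Ier2 by -2.14, and the abundant Ier3 by -0.61, which did not pass with all 8 libraries in the fit (adjusted p = 0.288).

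Of the genes whose promoters are shown above, the phosphatase gene Dusp1 changed by -0.95 and the receptor inhibitor gene Errfi1 by -0.67. Klf10 (0.67) and the ERK phosphatase gene Dusp6 (0.32), both named after seeing their values, rose. SRF and its coactivators, which drive many of these genes, had lower values. Srf had 9.68 and 9.67 FPKM at 32 °C, against 13.1 and 16.8 at 37 °C (-0.57 ± 0.11, adjusted p = 6.67e-04). The coactivator gene Mkl1 had 6.54 and 5.79 FPKM at 32 °C, against 16.5 and 20.5 at 37 °C (-1.44 ± 0.11, adjusted p = 7.28e-07). Mkl2 had 4.67 and 4.04 FPKM at 32 °C, against 9.05 and 8.73 at 37 °C (-0.89 ± 0.10, adjusted p = 1.05e-05). All 3 were lower in both 32 °C libraries. Of the list 20 fell and 1 rose in the 8-library fit.

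Notch receptors are cut on contact with ligands of neighbouring cells, and their freed tails act with RBPJ on genes such as Hes1 and Hey1. Of 24 measured pathway genes 15 fell (5 at least 2-fold) and 0 rose, with a median of -0.55 and -0.39 with the length trend removed. The receptor gene Notch1 had 2.47 and 2.46 FPKM at 32 °C, against 7.82 and 8.82 at 37 °C (-1.42 ± 0.10, adjusted p = 3.93e-07). Notch2 had 15.4 and 16.2 FPKM at 32 °C, against 36.6 and 36.7 at 37 °C (-1.16 ± 0.09, adjusted p = 6.92e-07). The receptors were lower in each 32 °C library. Both have long transcripts (9489 and 10506 nt), and with the length trend removed they changed by -0.94 and -0.64. The target gene Hey1 had 3.74 and 6.22 FPKM at 32 °C, against 16.8 and 17.6 at 37 °C (-1.63 ± 0.17, adjusted p = 3.31e-05). Hes1 had 3.44 and 3.33 FPKM at 32 °C, against 7.63 and 7.12 at 37 °C (-0.93 ± 0.09, adjusted p = 5.80e-06). The targets were lower as well. The Notch modifiers Dtx3 and Numbl changed by -1.21 and -0.90. The cleaving protease gene Adam10 had 35.2 and 37.1 FPKM at 32 °C, against 38.2 and 38.6 at 37 °C. Rbpj had 22.7 and 19.6 FPKM at 32 °C, against 20.6 and 17.9 at 37 °C. Neither was past the threshold (adjusted p = 0.426 and 0.276). In the 8-library fit 13 fell and 0 rose.

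In TGF-beta and BMP signalling 27 of 42 genes fell and 8 rose, and 15 and 2 with all 8 libraries in the fit. The median was -0.52 and -0.39 with the length trend removed. The ligand gene Tgfb3 changed by -1.09, the signal transducer Smad3 by -0.61, and the target genes Smad7, an inhibitor of the pathway, and Id3 by -1.13 and -1.42. Secreted antagonists moved in opposite directions. Follistatin (Fst), which traps activins, had 10.7 and 10.9 FPKM at 32 °C, against 2.54 and 1.92 at 37 °C (1.88 ± 0.11, adjusted p = 1.19e-07). The BMP antagonist gremlin (Grem1) had 63.8 and 59.8 FPKM at 32 °C, against 19.6 and 18.6 at 37 °C (1.64 ± 0.09, adjusted p = 1.02e-07). The follistatin-like Fstl3 had 7.83 and 6.96 FPKM at 32 °C, against 27.5 and 28.1 at 37 °C (-1.78 ± 0.09, adjusted p = 4.60e-08). Fst and Grem1 were thus above and Fstl3 below both 37 °C libraries. Fstl1, the most abundant member, had 153 and 159.9 FPKM at 32 °C, against 146 and 140.3 at 37 °C and did not pass (adjusted p = 0.304).

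Genes of the actomyosin cytoskeleton and of focal adhesions, through which fibroblasts pull on their substrate, fell in 45 of 70 cases (18 at least 2-fold) and rose in 10, with a median of -0.54 and -0.50 with the length trend removed. The GTPase gene Rhob had 15.7 and 17.2 FPKM at 32 °C, against 74.3 and 85.7 at 37 °C (-2.21 ± 0.10, adjusted p = 2.84e-08). The non-muscle myosin gene Myh9 had 74.8 and 67.4 FPKM at 32 °C, against 193 and 214 at 37 °C (-1.50 ± 0.11, adjusted p = 6.05e-07). In each both 32 °C libraries were below both 37 °C libraries. Cyr61, a matrix-bound signal induced by SRF and YAP, changed by -1.68. The smooth muscle actin gene Acta2, a marker of contractile myofibroblasts, rose, with 117 and 133 FPKM at 32 °C, against 29.8 and 33.5 at 37 °C (1.94 ± 0.11, adjusted p = 8.98e-08). Ankrd1, another YAP target, had 111 and 96.4 FPKM at 32 °C, against 30.4 and 26.5 at 37 °C (1.83 ± 0.11, adjusted p = 1.61e-07). With all 8 libraries in the fit 33 fell and 4 rose.

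Tubulins, kinesins and microtubule regulators outside mitosis fell in 23 of 39 cases (9 at least 2-fold) and rose in 9, a number that was 4 to 7 when any 1 library was left out. The median was -0.66 and -0.39 with the length trend removed. Tubb5, the most abundant beta-tubulin, had 203 and 223 FPKM at 32 °C, against 619 and 673 at 37 °C (-1.59 ± 0.12, adjusted p = 7.13e-07). Reads of tubulin paralogues could be shared between them. The heavy chain of the retrograde motor dynein (Dync1h1) had 15.8 and 14.4 FPKM at 32 °C, against 55.1 and 51.7 at 37 °C (-1.76 ± 0.09, adjusted p = 7.11e-08). The dynactin gene Dctn1, its cofactor, had 8.62 and 8.56 FPKM at 32 °C, against 21.9 and 25.1 at 37 °C (-1.35 ± 0.09, adjusted p = 3.81e-07). Both motor genes were lower in each 32 °C library. The microtubule-associated Mtap1a changed by -1.66 and the gamma-tubulin gene Tubg1 by -1.19. The 8-library fit had 19 lower and 1 higher.

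Axon guidance and neuronal adhesion genes, whose products steer growing nerve fibres and migrating cells, fell in 31 of 41 cases (15 at least 2-fold) and rose in 6, with a median of -0.77 and -0.51 with the length trend removed. The semaphorin receptor gene Plxna3 had 7.49 and 6.59 FPKM at 32 °C, against 20.8 and 22.8 at 37 °C (-1.50 ± 0.09, adjusted p = 2.08e-07). Its relative Plxnb2 had 53.98 and 55.2 FPKM at 32 °C, against 129 and 143 at 37 °C (-1.30 ± 0.10, adjusted p = 1.03e-06). The adhesion molecule gene Ncam1 had 12.2 and 10.2 FPKM at 32 °C, against 34.02 and 31.6 at 37 °C (-1.47 ± 0.10, adjusted p = 3.49e-07). The receptor tyrosine kinase gene Ephb3 changed by -1.30 and the membrane semaphorin Sema4g by -1.41. These receptors were lower in both 32 °C libraries, whereas the secreted ligand Sema3c was about 5 times the 37 °C level (ratio of means 5.06). Counts were 23 lower and 2 higher in the 8-library fit. The neural marker sums given above fell in the same libraries, and their part in this list was not tested.

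Of 22 genes of lipid rafts, caveolae and annexins 14 fell and 6 rose, and 8 and 4 with all 8 libraries in the fit. The median was -0.46 and -0.52 with the length trend removed. Ptrf, the cavin that shapes caveolae, had 102 and 109 FPKM at 32 °C, against 183 and 204 at 37 °C (-0.87 ± 0.11, adjusted p = 3.39e-05). Another cavin, Sdpr, had 95.7 and 93.95 FPKM at 32 °C, against 35.8 and 33.96 at 37 °C (1.42 ± 0.10, adjusted p = 3.39e-07). Caveolin 2 (Cav2) had 221 and 235 FPKM at 32 °C, against 122 and 118 at 37 °C (0.91 ± 0.11, adjusted p = 1.79e-05). The cavins thus moved apart without overlap of libraries. The annexin gene Anxa6 and the membrane repair gene Dysf changed by -0.94 and -1.04, against the rise of Anxa8.

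Chromatin remodellers and histone modifiers, long genes as a group (median length 4315 nt), fell in 73 of 104 cases (20 at least 2-fold) and rose in 10, none of them 2-fold. The median was -0.63, and with the length trend removed it was -0.33 with 63 lower and 14 higher. Kdm4b, a histone H3 lysine 9 demethylase, had 9.35 and 9.79 FPKM at 32 °C, against 35.7 and 40.6 at 37 °C (-1.89 ± 0.09, adjusted p = 4.11e-08). The remodeller gene Chd3 had 7.97 and 7.32 FPKM at 32 °C, against 24.8 and 26.4 at 37 °C (-1.62 ± 0.09, adjusted p = 8.07e-08). Both were lower in each 32 °C library. The maintenance DNA methyltransferase gene Dnmt1 and its partner Uhrf1, which act at replication, changed by -1.62 and -1.49, and the demethylase genes Kdm6b and Kdm5c by -1.45 and -1.42. The abundant Cbx5 had 83.1 and 83.9 FPKM at 32 °C, against 95.2 and 88.2 at 37 °C. Hdac2 had 59.2 and 70.9 FPKM at 32 °C, against 55.3 and 55.2 at 37 °C. Neither passed (adjusted p = 0.26 and 0.0837). All 8 libraries in the fit gave 53 lower and 0 higher. Replication-dependent histone genes, whose mRNAs normally end without a poly(A) tail, fell in 6 of 9 measured cases and rose in 0, with Hist1h4i at 3.36 and 4.12 FPKM at 32 °C, against 9.94 and 9.13 at 37 °C (-1.16 ± 0.11, adjusted p = 2.72e-06), and 54 of the 63 listed were below the minimum for testing.

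Glycogen metabolism contained the deepest fall of any described list. Gys1, the muscle-type glycogen synthase, which the hypoxia list also holds, had 13.8 and 13.7 FPKM at 32 °C, against 132 and 136 at 37 °C (-3.19 ± 0.09, adjusted p = 2.96e-09), a level at 37 °C 9.72 times that at 32 °C. The branching enzyme gene Gbe1 had 10.1 and 10.4 FPKM at 32 °C, against 37.9 and 37.1 at 37 °C (-1.77 ± 0.09, adjusted p = 3.42e-08). The phosphoglucomutase gene Pgm2 had 53.8 and 63.9 FPKM at 32 °C, against 148 and 166 at 37 °C (-1.41 ± 0.12, adjusted p = 1.45e-06). All 3 stood far below 37 °C. In all 11 of 18 genes fell and 2 rose, with a median of -0.45 and -0.23 with the length trend removed. Outside the genes also listed under hypoxia and glycolysis 8 of 12 fell, and 8 of the 18 fell with all 8 libraries in the fit. The kinase gene Gsk3a, which inactivates glycogen synthase, changed by -0.69.

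**Figure D5:**
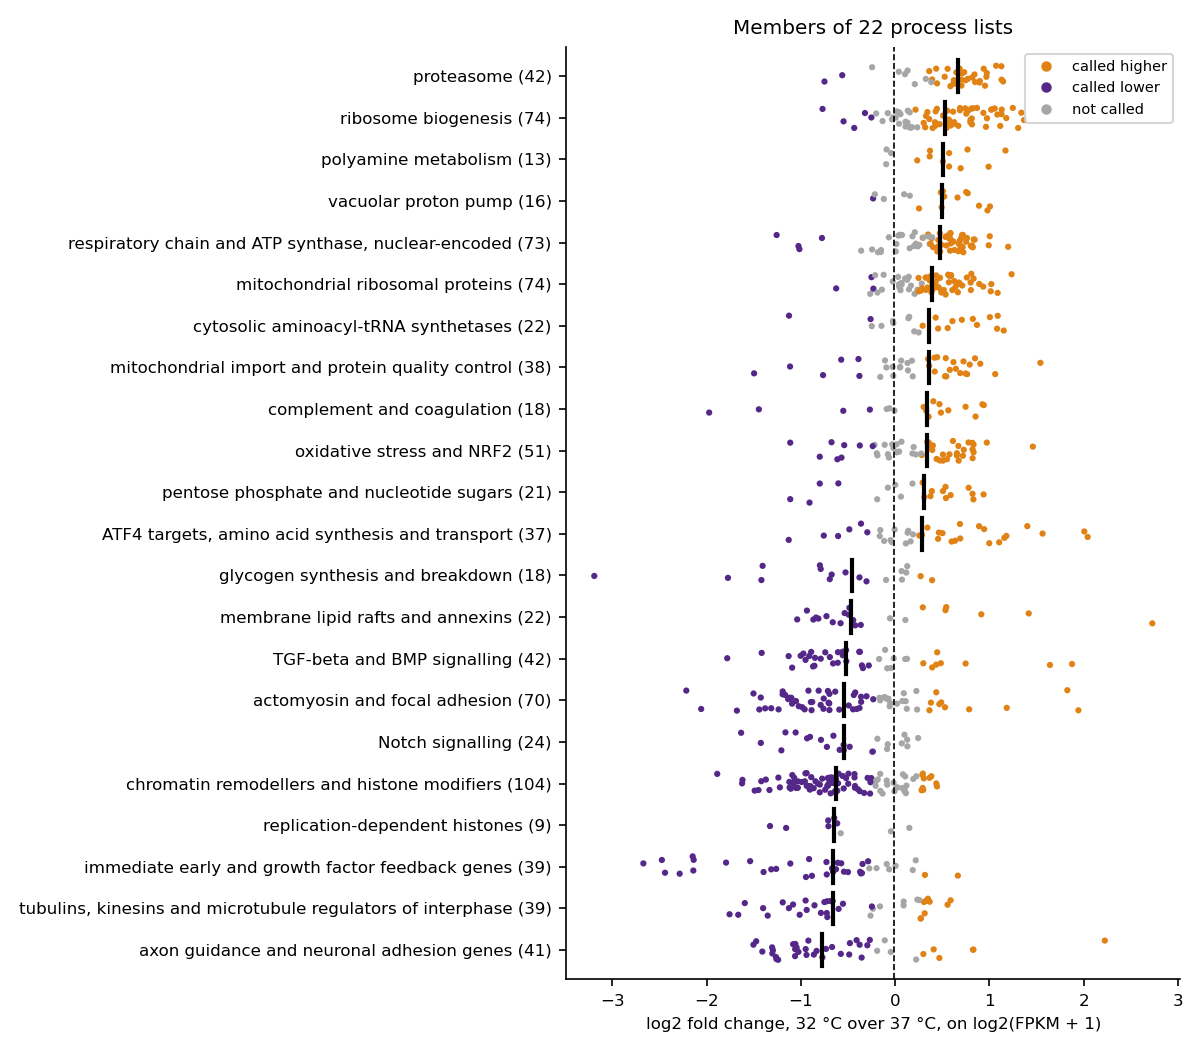
Log2 fold change (32 °C over 37 °C) of every tested member of 22 process lists, with the number of members in brackets, black bars at list medians and a dashed line at the median of all genes. Lists from the proteasome (median 0.67) to the ATF4 targets lean right and those from glycogen to axon guidance (median -0.77) lean left, and most hold members on both sides.

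The remaining 32 of 54 process lists had shares of rises and falls under 1.5 times the background. Among them N-glycosylation (25 of 51 higher, 14 lower, median 0.25) and the secretory coats and translocon (30 of 61 higher, 13 lower, median 0.19) had more members higher than lower. Metallothioneins and metal transport had 12 of 28 higher and 4 lower (median 0.18). Nuclear and snoRNA-host noncoding RNAs had 8 of 17 higher and 1 lower (median 0.38), but 6 higher and 5 lower with the length trend removed (median 0.03). Wnt signalling had 17 of 31 lower and 3 higher (median -0.28), and 12 and 7 with the length trend removed (median -0.12). The insulin and insulin-like growth factor axis had 23 of 42 lower and 7 higher (median -0.32), and 17 and 12 with that trend removed (median -0.08). For sodium, potassium and calcium transport 21 of 39 were lower and 8 higher (median -0.27), and 18 and 10 with that trend removed (median -0.17). Mixed lists included ER chaperones and the unfolded protein response (17 of 41 higher, 13 lower, median 0.06), cytosolic heat shock proteins and the CCT chaperonin (14 of 42 higher, 16 lower, median 0.04) and autophagy (13 of 37 higher, 14 lower, median 0.01). SR proteins and their kinases were at 8 of 25 higher and 8 lower (median -0.01), and hnRNPs and splicing regulators at 11 of 54 higher and 20 lower (median -0.03).

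Cold-inducible and cold-shock-domain RNA-binding proteins did not move as a block, with 5 of 10 higher and 2 lower, counts that include Cirbp and Rbm3. Extremes within the mixed lists, named after their values were seen, were the RNA-decay factor gene Zfp36 (-1.98) and the exosome subunit gene Exosc1 (1.80), the clock gene Bhlhe40 (-1.67), the desaturase gene Scd2 (-2.07), the apoptosis gene Bid (1.85) and the cysteine protease gene Ctsl (1.19). Chemokine, cytokine and NF-kB genes held wide changes in both directions, with 5 of 48 at least 2-fold higher and 6 lower and a median of 0.01.

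The PAR-CLIP samples of the study, which mark RNA sites crosslinked to FLAG-tagged Cirbp or Rbm3, gave another readout for the same genes. Sites of Rbm3 (2118 in all) lay within the locus of 5.76% of genes called higher at 32 °C, 11.7% of those called lower and 8.68% of those not called. For Cirbp (1941 sites) the shares were 8.69%, 8.07% and 8.33%. Genes with longer transcripts more often held a site. Sites were counted over the whole locus, introns included, and the length of the locus was not matched. Within each of the 5 classes of transcript length the share with an Rbm3 site was smaller among genes called higher than among those called lower (2.27% and 3.43% in the shortest class, 11.1% and 15.7% in the longest). Cirbp showed the other order in each class, with 3.84% of higher and 2.57% of lower genes in the shortest and 21.9% and 12.6% in the longest. Each protein has 1 library, the strand of genes is not listed and called genes differ in level (median 16.5 FPKM when higher and 11.5 FPKM when lower), so these shares are a description without a test.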

How the data were processed

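The authors deposited FPKM for each of 28702 RefSeq transcripts (Cufflinks-type tables, mm9). Per the submitters' processing notes reads were aligned with TopHat 1.1.2, while the treatment of reads with several positions and of strand is not given in the sources used here. The coverage values deposited by the authors (signal, mean read depth per base) served with FPKM to recover the mapped fragments of each library. The PAR-CLIP sites carry a score deposited by the authors, and only their positions were used.

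FPKM were summed per gene, and genes averaging 1 FPKM or more in the 4 mock libraries, with a transcript of at least 200 nt, were kept. The 2 libraries at 32 °C and 2 at 37 °C were compared on log2(FPKM + 1) with limma 3.58.1 (R 4.3.3), using empirical Bayes moderation (trend, robust; 2 residual and 9.29 prior degrees of freedom), two-sided tests and a Benjamini-Hochberg adjusted p under 0.05. The script was tested on simulated data. No batch is given in the labels for these libraries. The fold change of low genes is understated by the pseudocount of 1.

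The comparison and the gene lists were chosen with earlier results of these data known, and lists were not tested. Besides Cirbp and Rbm3, named genes were the 14 largest rises and 14 largest falls among called genes with at least 5 FPKM in the higher group, no overlap of groups and no place in the cell cycle, p53, hypoxia, matrix or replication-dependent histone lists, then up to 6 largest changes and the 2 most abundant members of each list described, with its known regulators. A list was described in full where the share of its members called in 1 direction was at least 1.5 times that of all genes, with 8 or more members tested. Genes named outside this rule are marked as such, or are cell type markers, genes at the expression minimum or genes whose promoters are shown. A few genes under the rule are not reported here. Alternatives were another pseudocount, filters, centring, quantile normalization, removal of a loess trend with transcript length, a replicate block, the highest transcript only, all 8 RNA-seq libraries in the fit and leaving out each mock library. Promoter windows are from RefSeq, GRCm38.p6, matched by symbol or synonym, and were not placed on mm9.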

Additional observations from a re-analysis of the deposited data

How the results depend on the processing

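The count of called genes was 7615 (3649 higher, 3966 lower). With all 8 libraries in the fit it was 3710 (1519 and 2191), 3707 of them shared with the same direction. Without a filter on low values it was 1 (1 and 0) of 21819 genes, with 6592 at an unadjusted p under 0.05. That fit adds genes at 0 in every library, whose variances limma offsets from zero; the cause of the lost calls was not tested. Leaving out 1 mock library at a time gave 6678 to 7204 called genes, 2988 to 3591 higher and 3524 to 3878 lower. Median centring moved the median of all genes to 0.11 and gave 4647 higher and 3442 lower, quantile normalization 4248 and 3729, and removal of the length trend 4011 and 3838. The other settings kept each count within 1.5 times. A replicate block gave 8027 called genes, 7607 of them shared. Deviations of same-numbered libraries correlated at 0.081 over genes, and with 2 pairs the numbers do not show a pairing.

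Of 179 called genes under the rule for named genes none had the opposite sign in any alternative run. The threshold was missed by 31 with all 8 libraries in the fit, 9 with the length trend removed, 8 with the highest transcript only, 3 with median centring, 2 with quantile normalization (Fth1 had a change of 0 there, tied at the top ranks) and 179 without a filter. Leaving out 1 library lost 1 to 13. No described list median changed sign with centring, quantile normalization or length removal. Depth limits genes near 1 FPKM, and 2 libraries per group leave the spread between cultures unknown. Leaving out 1 library leaves an arm with a single sample, which limma assumes to vary like the other arm.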
